A study of Homo sapiens with 15 samples.

Results

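PSN-1 is an established human line derived from a pancreatic ductal adenocarcinoma (PDAC). Its cells were transfected with siRNA against MLX (siMLX) or with a control siRNA (siControl), and the 3 siMLX and 3 siControl RNA-seq libraries are compared here, 6 of the 15 libraries in the series. The libraries were chosen by their labels alone. Cells of both groups were kept in RPMI medium with 10% fetal bovine serum and antibiotics, and RNA was taken after 72 hours of siRNA. The 3 libraries of cells given siRNA against MondoA (siMondoA, gene symbol MLXIP) in the same experiment are used for a direct comparison. The labels give neither the sequence nor the number of siRNAs per target, and no library restores MLX, so loss of MLX and other effects of its siRNA cannot be told apart. The labels do not say whether replicates are separate cultures, so the p-values rest on library-to-library spread that may be technical only.

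MLX is a basic helix-loop-helix leucine zipper protein that binds DNA as a dimer. Its partners include MondoA and ChREBP, which respond to glucose-derived sugars and drive genes such as TXNIP and ARRDC4 from paired E-boxes called carbohydrate response elements, and the repressors MNT, MXD1 and MXD4, which also pair with MAX, the partner of MYC. MLX thus sits where a nutrient-sensing branch meets the MYC network. The core E-box of this family is CACGTG. MiT/TFE factors, which drive lysosomal genes, read a motif that holds an E-box core as well.

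Libraries held 11227343 to 14731691 counts in genes over the 9 siRNA libraries, and a level of 3 counts came to 0.196 to 0.267 CPM, the count relative to the TMM-scaled library total. Log2 CPM correlated at 0.987 to 0.992 between siControl libraries and 0.971 to 0.989 between siMLX libraries. siMLX replicate 2 stood apart: chi-square per degree of freedom was 41.1 and 46.7 between it and siMLX replicates 1 and 3, against 8.53 between those, 9.11 to 12.3 between siControl libraries and 20.7 to 50.2 between siMondoA libraries. The genes it held farthest above the other 5 libraries were INHBE, CHAC1, ADM2, ASNS, TRIB3, JDP2, SLC7A11 and GDF15, most of them known targets of the integrated stress response, and the farthest below were HSPA1A, BMP4, FAM111B, HAS3, HSPA1B, RAB3A, HCAR1 and KLHL3. Results are therefore also given without siMLX replicate 2. Of ductal epithelial markers, KRT7, KRT8 and KRT18 stood at 244 to 1233 CPM across the 6 libraries, while CDH1 was at 1.3 to 9.15 CPM. Of 12 immune cell markers 3 were tested and none was called with all libraries or without siMLX replicate 2; CD3D, CD3E and MS4A1 were at 0 and the summed level was 48.8 to 57 CPM in siMLX and 43.9 to 52.6 CPM in siControl. Of 12 fibroblast and endothelial markers 7 were tested, and DCN and KDR rose and PDGFRB fell in both fits. Over all genes 3.72% rose and 4.69% fell with all libraries, and 2.59% and 3.68% without siMLX replicate 2. PDGFRB was not called leaving out siControl 1 or siMLX 3. The summed level of these markers was 206 to 305 CPM in siMLX and 204 to 283 CPM in siControl.

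The targeted transcript was low in every siMLX library. MLX (chromosome 17, 42567068 to 42573239, plus strand; gene positions are those of GENCODE v29, GRCh38) was at 11.9, 7.15 and 7.7 CPM in siMLX and 53.4, 58.8 and 53 CPM in siControl. All siMLX libraries lay below all siControl libraries, with means of 8.93 ± 2.62 and 55.1 ± 3.26 CPM (SD, n = 3 each). The log2 fold change was -2.63 ± 0.18 with all libraries and -2.5 ± 0.18 without siMLX replicate 2 (edgeR adjusted p 8.21e-05 and 0.000177). Errors of log2 fold changes here and below are approximate standard errors. Each is the absolute log2 fold change divided by the square root of the F statistic of the edgeR quasi-likelihood test. PSMC3IP, which overlaps MLX exons on the other strand, averaged 4.49 CPM, and the sources used here do not state whether counting used strand. Among the other dimer partners, MXD4, a repressor that pairs with MAX or MLX, also fell. It was at 86.8, 47.1 and 71 CPM in siMLX against 146, 117 and 113 CPM in siControl, with log2 fold change -0.88 ± 0.20 with all libraries and -0.67 ± 0.15 without siMLX replicate 2 (edgeR adjusted p 0.0267 and 0.0301). Its adjusted p was 0.112, 0.0747 and 0.0557 leaving out siControl 1, 2 or 3 and 0.0701 leaving out siMLX 3. MLXIP, which codes for MondoA, was at 62.3, 66.6 and 68.1 CPM against 83.6, 65.8 and 88.7 CPM (-0.27 ± 0.16, edgeR adjusted p = 0.316). MYC was at 580.5, 599 and 732 CPM against 588, 621 and 696 CPM, where the groups overlapped (0.00 ± 0.12, adjusted p = 0.986). MLX and MXD4 were the 2 called of 12 network genes tested, both with all libraries and without siMLX replicate 2, where 4.69% and 3.68% of all genes fell.

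The promoters of MLX, MXD4 and 3 further genes that come up below are shown because each carries the E-box core CACGTG, in capitals, within the 250 bases before the RefSeq start (GRCh38.p14, printed 5′ to 3′ on the gene's own strand). They lie at chr17:42566850-42567099, plus strand for MLX, chr4:2262110-2262359, minus strand for MXD4, chr15:97960453-97960702, plus strand for ARRDC4, chr17:80101331-80101580, plus strand for GAA and chr11:66568607-66568856, minus strand for CTSF.
MLX: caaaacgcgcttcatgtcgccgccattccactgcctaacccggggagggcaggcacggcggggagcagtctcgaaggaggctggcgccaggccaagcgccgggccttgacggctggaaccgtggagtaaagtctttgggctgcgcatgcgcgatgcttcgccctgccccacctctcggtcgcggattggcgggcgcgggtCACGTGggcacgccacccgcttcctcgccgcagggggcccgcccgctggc
MXD4: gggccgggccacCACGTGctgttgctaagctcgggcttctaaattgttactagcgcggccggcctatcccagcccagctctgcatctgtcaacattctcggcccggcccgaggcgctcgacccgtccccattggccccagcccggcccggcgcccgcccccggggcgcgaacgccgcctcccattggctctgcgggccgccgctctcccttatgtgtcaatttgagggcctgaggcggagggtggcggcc
ARRDC4: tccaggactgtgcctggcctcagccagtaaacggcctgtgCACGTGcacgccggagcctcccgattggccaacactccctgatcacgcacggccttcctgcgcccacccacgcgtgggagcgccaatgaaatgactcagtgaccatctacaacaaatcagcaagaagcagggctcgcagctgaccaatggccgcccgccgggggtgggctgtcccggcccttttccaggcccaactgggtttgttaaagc
GAA: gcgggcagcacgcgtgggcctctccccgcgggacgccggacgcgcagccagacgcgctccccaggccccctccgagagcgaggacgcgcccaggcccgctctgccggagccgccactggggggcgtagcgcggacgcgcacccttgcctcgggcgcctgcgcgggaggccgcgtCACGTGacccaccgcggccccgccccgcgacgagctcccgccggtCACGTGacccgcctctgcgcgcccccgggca
CTSF: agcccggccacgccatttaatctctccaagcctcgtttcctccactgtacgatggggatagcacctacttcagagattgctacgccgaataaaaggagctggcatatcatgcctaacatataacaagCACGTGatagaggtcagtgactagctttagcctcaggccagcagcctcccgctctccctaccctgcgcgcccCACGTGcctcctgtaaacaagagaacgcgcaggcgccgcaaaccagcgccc
In the first of these the E-box begins 50 bases before the start of MLX itself, in the second 238 bases before that of MXD4 and in the third 210 bases before that of ARRDC4. GAA and CTSF carry 2 each. Among the 9769 of 13001 tested genes with a promoter entry, 12.8% held CACGTG, which reads the same on both strands, between 250 bases before and 50 after the start. The share was 13.1% of genes higher in siMLX (50 of 381) and 8.88% of genes lower (42 of 473). Restricted to genes called also without siMLX replicate 2, the shares were 11% and 8.58%. A paired form, CANGNG followed by CNCNTG with 5 bases between, on either strand, was in 0.798% of all promoters, 0.262% of those of genes called higher and 1.27% of those of genes called lower. It was in 0 of the 15 MondoA and ChREBP targets with an entry. The TXNIP window holds cacgagggcagcacgag, 2 copies of CACGAG with 5 bases between, which this pattern does not match. These shares therefore do not count all carbohydrate response elements. The same windows of 250 bases held no CACGTG for CTSZ and RASD1, or at either of 2 listed starts for HBP1 and TXNIP, and 1 for CTSD. These matches are letters in a window and were not tested as sites.

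Across all genes, 484 of 13001 rose (3.72%) and 610 fell (4.69%) at an edgeR adjusted p under 0.05, 1094 in all (8.41%), and the median log2 fold change was 0.018. Of these, 164 rose and 210 fell by at least 2-fold. Without siMLX replicate 2, 341 of 13182 rose (2.59%) and 485 fell (3.68%), 826 in all (6.27%). Shared calls of the same direction were 283 rises and 392 falls, and 419 genes were called only with all libraries. The count depended on the fit and on single libraries. With the replicate number as a block in a fit of the 6 libraries, called the replicate block here, 823 of 12811 rose (6.42%) and 1100 fell (8.59%), 1923 in all (15%), and a fit of the compared libraries alone without siMLX replicate 2 called 2089 (16.1%), 924 higher (7.1%) and 1165 lower (8.96%). Leaving out siControl replicate 1, 2 or 3 gave 254, 301 and 496 calls, and leaving out siMLX replicate 1 or 3 gave 833 and 412. The authors' deposited table has 655 genes higher and 806 lower at an adjusted p under 0.05 of 12442 genes, and 902 of the 1094 genes called here were among them. Between the groups' libraries there was no overlap for 16.5% of all genes on the higher side and 16.9% on the lower side.

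**Figure D1:**
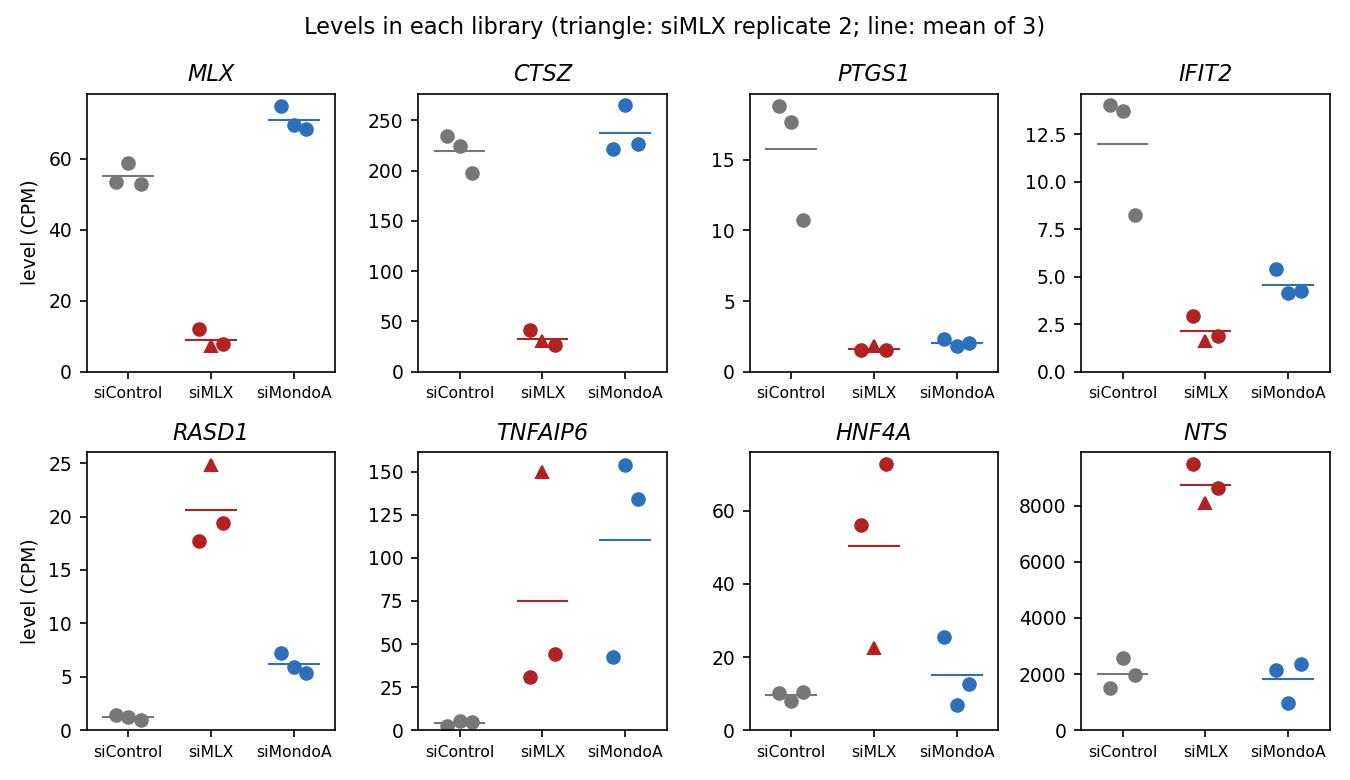
Level (CPM, linear axis from 0) of 8 genes in each library of siControl (grey), siMLX (red) and siMondoA (blue); the triangle is siMLX replicate 2 and the line the mean of 3 libraries. MLX, CTSZ, PTGS1 and IFIT2 lie lower in siMLX than in siControl, with no overlap, and RASD1, TNFAIP6, HNF4A and NTS lie higher, with siMLX replicate 2 at 149.8 CPM for TNFAIP6.

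Among the 12 largest falls called in both fits, the lysosomal cysteine protease CTSZ and the prostaglandin-forming cyclooxygenase PTGS1 stood beside MLX. CTSZ (chromosome 20, 58995185 to 59007247, minus strand), whose product trims carboxy termini in the lysosome, was at 41.9, 30.2 and 26.3 CPM in siMLX and 234, 225 and 198 CPM in siControl. Its highest siMLX library lay below its lowest siControl library, with log2 fold change -2.74 ± 0.17 with all libraries and -2.69 ± 0.20 without siMLX replicate 2 (edgeR adjusted p 6.61e-05 and 0.000177). PTGS1 (chromosome 9, 122370530 to 122395703, plus strand), the constitutive cyclooxygenase COX-1, was at 1.5, 1.85 and 1.52 CPM against 18.8, 17.7 and 10.8 CPM. Its 3 siMLX values lay close together, and the log2 fold change was -3.26 ± 0.26 with all libraries and -3.37 ± 0.31 without siMLX replicate 2 (edgeR adjusted p 0.000195 and 0.000599). DNAH2, an axonemal dynein heavy chain, was at 4.95, 3.0 and 1.3 CPM against 25.7, 23.3 and 25.8 CPM (-3.03 ± 0.35 and -3.02 ± 0.40 without siMLX replicate 2, edgeR adjusted p 0.00138 and 0.00313). TRABD2B, which codes for a membrane protease that acts on WNT proteins, fell from 117, 104 and 87.5 CPM to 32.2, 17.2 and 19.3 CPM (-2.17 ± 0.24 and -2.0 ± 0.23, adjusted p 0.00118 and 0.00173). The libraries of these genes did not overlap between the groups, as the rule for largest changes requires.

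The other falls of this size were single genes of several kinds, and gene lists are given below. With log2 fold changes and edgeR adjusted p given first with all libraries and then without siMLX replicate 2, the interferon-induced RNA-binding protein IFIT2 (-2.49 ± 0.29 and -2.32 ± 0.32, adjusted p 0.00138 and 0.00337) and the integrin chain ITGA10 (-2.38 ± 0.26 and -2.4 ± 0.31, adjusted p 0.00126 and 0.00303) were lower. From cell death, the death ligand gene TNFSF10 (-2.22 ± 0.43 and -2.06 ± 0.47, adjusted p 0.0133 and 0.0288), which codes for TRAIL, and the BH3-only gene BMF (-2.1 ± 0.32 and -1.97 ± 0.36, adjusted p 0.0052 and 0.0134) were lower. The collagen I chain gene COL1A2 (-2.43 ± 0.50 and -2.06 ± 0.45, adjusted p 0.0171 and 0.0247), the growth arrest-specific gene GAS7 (-2.08 ± 0.34 and -2.26 ± 0.39, adjusted p 0.00672 and 0.0113) and the salivary cystatin gene CST4 (-2.39 ± 0.40 and -2.39 ± 0.45, adjusted p 0.0072 and 0.0151) were lower as well. CST4 shares near-identical sequence with its paralogs, so its value is uncertain. The exons of IFIT2 overlap those of LIPA. Without a single library the edgeR adjusted p was over 0.05 for COL1A2 (0.0696 and 0.0652 leaving out siControl 2 or 3) and TNFSF10 (0.0594 and 0.059 leaving out siControl 1 or 2 and 0.0539 leaving out siMLX 3). EIF3M (chromosome 11, 32583798 to 32606262, plus strand), a subunit of translation initiation factor 3, ranked below the first 12 and was picked after its values were seen. It was at 134, 135 and 102 CPM in siMLX and 424, 502 and 378 CPM in siControl (-1.81 ± 0.15 and -1.88 ± 0.16, edgeR adjusted p 0.000195 and 0.000513), with no overlap. Picked in the same way, DMBT1, a secreted scavenger receptor-like glycoprotein of ducts, was at 64.5, 57.8 and 46.6 CPM against 202, 259 and 167 CPM (-1.9 ± 0.21 and -1.92 ± 0.24, adjusted p 0.00118 and 0.00238).

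The 12 largest rises began with TNFAIP6 and RASD1. RASD1 (chromosome 17, 17494437 to 17496395, minus strand), a dexamethasone-inducible RAS-like GTPase, was at 17.7, 24.8 and 19.4 CPM in siMLX and 1.42, 1.24 and 0.978 CPM in siControl. All 3 siMLX libraries were high, and the log2 fold change was 4.09 ± 0.23 with all libraries and 3.94 ± 0.23 without siMLX replicate 2 (edgeR adjusted p 4.71e-05 and 5.48e-05). TNFAIP6, a hyaluronan-binding protein induced in inflammation, was at 31.1, 149.8 and 44.4 CPM against 2.67, 5.19 and 4.89 CPM. It was highest in siMLX replicate 2 and above all siControl libraries in the other siMLX libraries too, with log2 fold change 4.13 ± 0.69 with all libraries and 3.13 ± 0.48 without siMLX replicate 2 (edgeR adjusted p 0.00749 and 0.00629). HNF4A, a nuclear receptor of endodermal epithelium, was at 56.2, 22.5 and 72.8 CPM against 10.0, 7.99 and 10.5 CPM. Here siMLX replicate 2 was the lowest of the siMLX libraries, and the log2 fold change was 2.41 ± 0.48 with all libraries and 2.76 ± 0.39 without siMLX replicate 2 (edgeR adjusted p 0.0152 and 0.00375). IL6, the inflammatory cytokine, was at 24.3, 214 and 25.5 CPM against 11.6, 15 and 8.22 CPM. siMLX replicate 2 was by far the highest, and the log2 fold change was 2.93 ± 0.75 with it and 1.11 ± 0.24 without it (edgeR adjusted p 0.0405 and 0.0243). AREG, an EGFR ligand, was likewise highest there, at 73.4, 273 and 83.4 CPM against 25.9, 20.8 and 17.5 CPM (2.75 ± 0.47 and 1.88 ± 0.24, adjusted p 0.00881 and 0.00276).

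The remaining rises included the secreted proteins DCN and S100A9, each at similar levels in the 3 siMLX libraries. DCN, the collagen-binding proteoglycan decorin, was at 14.2, 11.5 and 10.5 CPM in siMLX and 3.11, 1.24 and 0.978 CPM in siControl (2.8 ± 0.37 and 2.83 ± 0.40, edgeR adjusted p 0.0027 and 0.00375). S100A9, a calcium-binding alarmin, was at 105, 129.8 and 125 CPM against 14.9, 38.8 and 18.6 CPM (2.31 ± 0.29 and 2.25 ± 0.30, adjusted p 0.00218 and 0.00313). The others, with the value without siMLX replicate 2 second, were the prion-like gene PRND (2.94 ± 0.38 and 3.19 ± 0.33, adjusted p 0.0027 and 0.00104), the formin gene FHDC1 (2.85 ± 0.45 and 2.33 ± 0.37, adjusted p 0.00566 and 0.0073), the growth factor gene FGF7 (2.41 ± 0.46 and 1.91 ± 0.41, adjusted p 0.0133 and 0.0243), the diacylglycerol kinase gene DGKB (2.32 ± 0.26 and 2.35 ± 0.27, adjusted p 0.00126 and 0.00173) and LOC729739 (2.31 ± 0.23 and 2.19 ± 0.25, adjusted p 0.000895 and 0.00158). Leaving out single libraries took the edgeR adjusted p over 0.05 for HNF4A (0.0689, 0.0781 and 0.0557 leaving out siControl 1, 2 or 3 and 0.0554 leaving out siMLX 3), IL6 (0.14, 0.116 and 0.127 leaving out siControl 1, 2 or 3), AREG (0.0509 leaving out siControl 2) and FGF7 (0.0641 and 0.0576 leaving out siControl 1 or 3). NTS (chromosome 12, 85874295 to 85882992, plus strand), which codes for the gut peptide neurotensin, ranked below the first 12 and was picked after its values were seen. It was at 9480.1, 8074 and 8629 CPM in siMLX and 1488, 2580.1 and 1977 CPM in siControl, with no overlap, and the log2 fold change was 2.11 ± 0.30 with all libraries and 2.17 ± 0.32 without siMLX replicate 2 (edgeR adjusted p 0.00373 and 0.00489). Other rises picked in this way were DIO2 (2.18 ± 0.19 and 2.07 ± 0.20, adjusted p 0.000304 and 0.000661), the deiodinase that activates thyroid hormone, AOX1 (1.79 ± 0.15 and 1.78 ± 0.17, adjusted p 0.000233 and 0.000599), an aldehyde oxidase, and TCF7L1 (1.84 ± 0.18 and 1.85 ± 0.20, adjusted p 0.000849 and 0.00115), a transcription factor of WNT signalling.

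Of 19 MondoA and ChREBP targets tested, HBP1 alone was called with all libraries, while HBP1, TXNIP and ARRDC4 were called without siMLX replicate 2. Over all genes 4.69% and 3.68% fell in those fits, so the single call with all libraries is near the share of all genes. The list's median log2 fold change was -0.11 with all libraries and -0.02 without that library, against 0.018 and 0.008 over all genes. HBP1, a repressor of growth genes, was at 42.4, 43.2 and 28.7 CPM in siMLX and 91.9, 96.7 and 76.9 CPM in siControl. All siMLX libraries were lower, with log2 fold change -1.22 ± 0.17 with all libraries and -1.32 ± 0.19 without siMLX replicate 2 (edgeR adjusted p 0.00371 and 0.0038); COG5 overlaps HBP1 exons on the other strand. ARRDC4, an arrestin-domain protein that limits glucose uptake, was at 13.7, 40.2 and 11 CPM against 49.2, 62.3 and 47.1 CPM. siMLX replicate 2 stood nearest the controls, and the value was -1.28 ± 0.45 with all libraries and -2.1 ± 0.32 without siMLX replicate 2 (edgeR adjusted p 0.102 and 0.00586); it was -1.5 ± 0.27, edgeR adjusted p = 0.0171, with the replicate block. TXNIP, the thioredoxin-interacting arrestin, followed the same order of libraries, with the edgeR adjusted p at 0.154 with all libraries and 0.0198 without siMLX replicate 2 (-1.43 ± 0.59 and -2.39 ± 0.49). It was -1.78 ± 0.34, edgeR adjusted p = 0.0195, with the replicate block. With the replicate block 4 members fell and 0 rose, where 8.59% of all genes fell and 6.42% rose. The fatty acid synthesis list had 0 of 21 genes called in either fit (3 at an unadjusted p under 0.05, 1 called by DESeq2) and the glycolysis list 0 of 22 with all libraries (3 at an unadjusted p under 0.05, 1 by DESeq2), where without siMLX replicate 2 the aldolase gene ALDOC rose (1.16 ± 0.28, edgeR adjusted p = 0.0369).

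Lysosomal enzyme transcripts were lower as a group in all 3 siMLX libraries. Of 30 lysosomal hydrolases and their activators, all tested, 12 fell and none rose with all libraries, where 4.69% of all genes fell. Without siMLX replicate 2, 10 fell and none rose, where 3.68% of all genes fell. With all libraries 29 had a negative fold change, against 47.9% of all genes. The median was -0.43 (-0.37 without siMLX replicate 2), and by library it was -0.33, -0.56 and -0.43 in siMLX replicates 1, 2 and 3 relative to the siControl mean. Their summed level was 1717 to 1786 CPM in siMLX and 2470.5 to 2873 CPM in siControl. PSAP (chromosome 10, 71816298 to 71851375, minus strand), the precursor of the saposins that help degrade sphingolipids, was at 401, 429 and 365 CPM in siMLX and 905, 753 and 726 CPM in siControl. No siMLX library reached the lowest control, and the log2 fold change was -1.0 ± 0.15 with all libraries and -1.05 ± 0.17 without siMLX replicate 2 (edgeR adjusted p 0.00516 and 0.00822). TPP1, a tripeptidyl peptidase, was at 46.3, 47.1 and 37.6 CPM against 95.3, 78.3 and 76 CPM (-0.93 ± 0.14 and -0.99 ± 0.15, edgeR adjusted p 0.00475 and 0.00629). GAA, the lysosomal glycogen-degrading glucosidase whose promoter is printed above, was at 54.3, 66.4 and 44.1 CPM against 115, 94.9 and 96.8 CPM (-0.89 ± 0.17 and -1.06 ± 0.16, adjusted p 0.0121 and 0.00594). The groups did not overlap for either gene. GUSB, the beta-glucuronidase, was at 30.3, 29.2 and 30.6 CPM against 49.6, 46.4 and 46 CPM (-0.66 ± 0.10 and -0.64 ± 0.12, adjusted p 0.00528 and 0.0136). For 22 of the 30 genes every siMLX library lay below every siControl library, which held for 16.9% of all genes. The hydrolases that fell numbered 3, 8 and 8 with siControl replicate 1, 2 or 3 left out and 9 and 6 with siMLX replicate 1 or 3 left out, and the edgeR adjusted p of GAA was 0.0593 leaving out siControl 1. In bulk libraries, a change in all cells and a change in some of them cannot be told apart.

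Cathepsins, the lysosomal proteases, split by member. Of 12 tested, CTSZ, CTSO, CTSF, CTSB and CTSD fell and none rose with all libraries, and the first 4 fell without siMLX replicate 2. In those fits 4.69% and 3.68% of all genes fell, and the list's median was -0.46 and -0.42. CTSB, an abundant cysteine cathepsin, was at 159, 177 and 135 CPM in siMLX and 284, 237 and 200.3 CPM in siControl (-0.61 ± 0.14 and -0.71 ± 0.15, edgeR adjusted p 0.0294 and 0.0232). CTSO was at 4.69, 4.92 and 2.44 CPM against 12.9, 12.9 and 7.83 CPM (-1.48 ± 0.29 and -1.66 ± 0.32, adjusted p 0.0143 and 0.0167). CTSF, with 2 E-boxes in the sequence above, was at 6.99, 6.54 and 5.11 CPM against 13, 11.9 and 10.4 CPM (-0.92 ± 0.21 and -0.96 ± 0.24, adjusted p 0.0267 and 0.0423). CTSZ was thus the cathepsin with the lowest fold change, and it kept its call without each library in turn, while the cathepsins that fell numbered 1, 1 and 3 with siControl replicate 1, 2 or 3 left out and 3 and 2 with siMLX replicate 1 or 3 left out. In those fits the edgeR adjusted p was over 0.05 for CTSB (0.116 and 0.0895 leaving out siControl 1 or 2 and 0.0612 and 0.0977 leaving out siMLX 1 or 3), CTSO (0.063 and 0.0687 leaving out siControl 1 or 2) and CTSF (0.104, 0.0909 and 0.0516 leaving out siControl 1, 2 or 3 and 0.0903 leaving out siMLX 3). CACGTG was in the promoter window of 3 of 8 cathepsins and 5 of 19 hydrolases with an entry, whether called or not. The share was 12.8% of all genes and 8.88% of all genes called lower. Of 24 genes of the lysosomal membrane and proton pump, NPC2, a lysosomal cholesterol carrier, and ATP6AP2, a proton pump accessory subunit, fell in both fits and no other was called; NPC2 was at 44.1, 31.3 and 26.5 CPM against 107, 83 and 64.2 CPM (-1.32 ± 0.21 and -1.26 ± 0.24, adjusted p 0.00647 and 0.0149). Of 23 TFE factors and autophagy genes, GPNMB and the autophagy receptor NBR1 fell with all libraries, though none was called leaving out siControl 1 or 2 or siMLX 1 or 3, and the autophagy receptor SQSTM1 fell in addition without siMLX replicate 2 (-0.69 ± 0.23 and -0.91 ± 0.23, adjusted p 0.0903 and 0.0407, and -0.73 ± 0.12, edgeR adjusted p = 0.0144, with the replicate block). Exons of NPC2 and SQSTM1 overlap those of ISCA2 and MGAT4B.

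**Figure D2:**
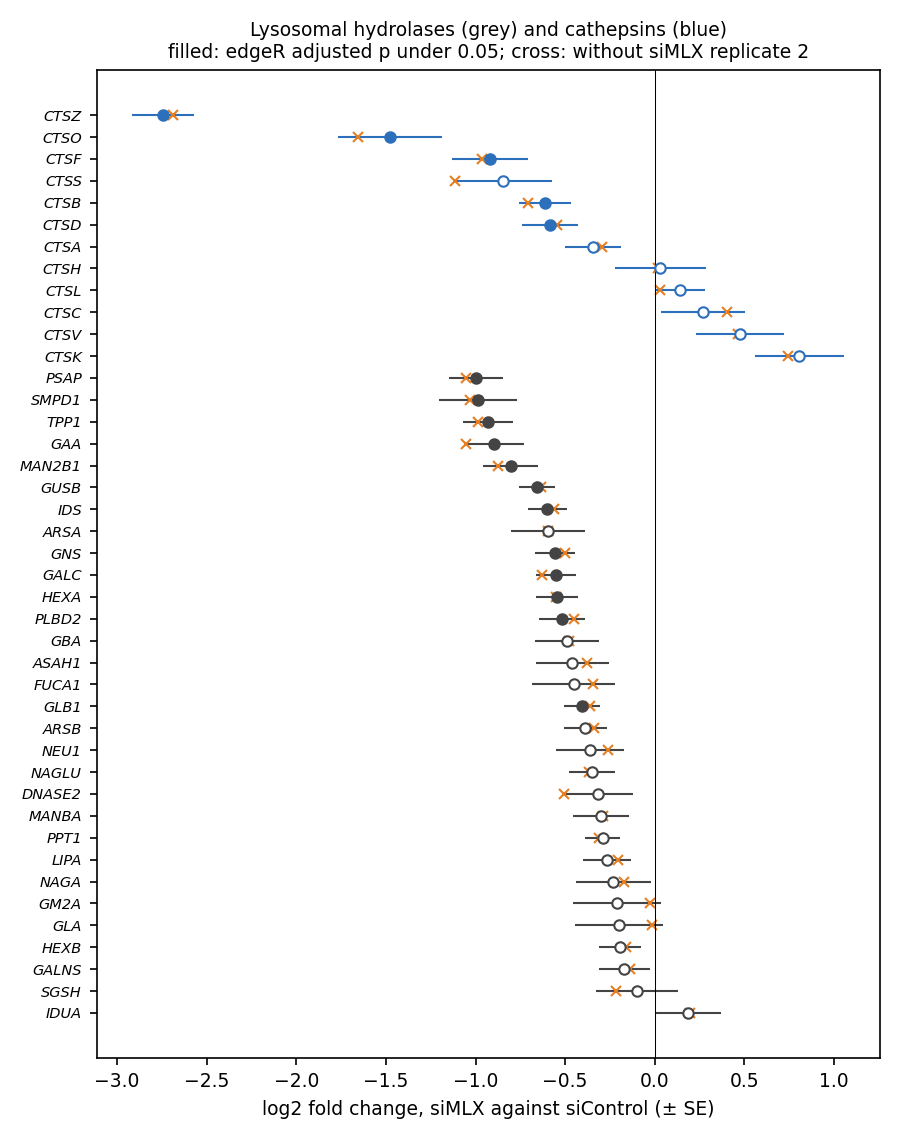
Log2 fold change of siMLX against siControl with its approximate standard error for each of the 30 lysosomal hydrolases (grey) and 12 cathepsins (blue) tested. Filled points have an edgeR adjusted p under 0.05 and crosses are the values without siMLX replicate 2. Points for 29 of 30 hydrolases lie below 0, and CTSZ lies farthest to the left at -2.74.

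Interferon response and antigen presentation genes were lower too. Of 35 tested, 12 fell and 1 rose with all libraries, where 4.69% of all genes fell and 3.72% rose. The rise was IRF7, an interferon regulatory factor, named after its value was seen. Without siMLX replicate 2, 10 fell and none rose, where 3.68% of all genes fell. The median was -0.53 and -0.52, and the library medians were -0.39, -0.41 and -0.60 in siMLX replicates 1, 2 and 3. The summed level was 2144 to 2552 CPM in siMLX and 3329 to 4101 CPM in siControl. B2M (chromosome 15, 44711487 to 44718877, plus strand), the invariant chain of MHC class I, was at 1113, 995 and 831 CPM in siMLX and 1837, 1854 and 1537 CPM in siControl. Every siMLX library was lower than every control, with log2 fold change -0.83 ± 0.13 with all libraries and -0.84 ± 0.15 without siMLX replicate 2 (edgeR adjusted p 0.00551 and 0.0132). HLA-B, a class I heavy chain, was at 58.2, 73.9 and 52.1 CPM against 188, 178 and 151 CPM (-1.49 ± 0.17 and -1.65 ± 0.17, edgeR adjusted p 0.0013 and 0.000937). HLA genes are near-identical, so 25-base reads may be split between them. IFIT3, an interferon-induced antiviral protein, was at 10.6, 6.69 and 6.71 CPM against 22, 18.8 and 15.4 CPM (-1.23 ± 0.21 and -1.12 ± 0.22, adjusted p 0.00784 and 0.0179). DDX58, which codes for the viral RNA sensor RIG-I, was at 17.9, 17.3 and 13.4 CPM against 35.7, 34.4 and 26.5 CPM (-0.99 ± 0.19 and -1.04 ± 0.21, adjusted p 0.0121 and 0.0186). TAP1, the peptide transporter that loads class I, went from 89.2, 89.4 and 84.9 CPM to 64.7, 66.1 and 61.6 CPM (-0.45 ± 0.09 and -0.48 ± 0.10, adjusted p 0.0157 and 0.0247). For these 3 genes no siMLX library reached a control. Interferon genes that fell numbered 4, 5 and 9 with siControl replicate 1, 2 or 3 left out and 12 and 5 with siMLX replicate 1 or 3 left out. Without some libraries the edgeR adjusted p was over 0.05 for DDX58 (0.059 and 0.0585 leaving out siControl 1 or 2) and TAP1 (0.0658 and 0.0705 leaving out siControl 1 or 2 and 0.0655 leaving out siMLX 3). IRF1, an interferon-induced transcription factor, was at 35.9, 74.9 and 39.2 CPM against 57.1, 53.7 and 54.5 CPM, highest in siMLX replicate 2 and lower than the controls in the other siMLX libraries (-0.14 ± 0.24 and -0.55 ± 0.13, adjusted p 0.762 and 0.0293).

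Mitotic genes were higher as a group in siMLX replicates 1 and 3, with a positive fold change for every tested member in both fits. Of 28 genes, 10 rose with all libraries and 14 without siMLX replicate 2, where 3.72% and 2.59% of all genes rose. None of the 28 fell in either fit, and their median was 0.43 and 0.56. Library medians were 0.50, 0.11 and 0.61 in siMLX replicates 1, 2 and 3, and siMLX replicate 2 lay among the siControl medians of -0.03, -0.08 and 0.14. CENPA, the centromeric histone, was at 24.9, 26.2 and 29.4 CPM in siMLX and 14.4, 11.4 and 13.3 CPM in siControl, with log2 fold change 1.04 ± 0.14 with all libraries and 1.06 ± 0.16 without siMLX replicate 2 (edgeR adjusted p 0.0031 and 0.00496); its exons overlap SLC35F6. AURKA, the spindle pole kinase, was at 229, 229.8 and 263 CPM against 150.3, 149 and 164 CPM (0.64 ± 0.11 and 0.67 ± 0.12, edgeR adjusted p 0.00968 and 0.0138). CCNB1, the mitotic cyclin B1, was at 274, 231 and 287 CPM against 179.9, 176 and 191 CPM (0.53 ± 0.13 and 0.62 ± 0.13, adjusted p 0.0343 and 0.0223). For all 3 genes the groups did not overlap. Mitotic genes that rose numbered 1, 1 and 6 with siControl replicate 1, 2 or 3 left out and 5 and 3 with siMLX replicate 1 or 3 left out. They numbered 27 in the fit of only the compared libraries without siMLX replicate 2, where 7.1% of all genes rose. The edgeR adjusted p was over 0.05 without a library for AURKA (0.0524 and 0.0534 leaving out siControl 1 or 2) and CCNB1 (0.121, 0.124 and 0.0779 leaving out siControl 1, 2 or 3 and 0.0759 and 0.11 leaving out siMLX 1 or 3). Of 31 DNA replication genes only RFC4, whose exons overlap EIF4A2, rose with all libraries (median 0.18), and RRM2 only without siMLX replicate 2 (0.98 ± 0.23, edgeR adjusted p = 0.0315, and 0.65 ± 0.14, edgeR adjusted p = 0.0256, with the replicate block; list median 0.35).

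Cholesterol synthesis genes were high in siMLX replicates 1 and 3 and low in replicate 2. HMGCS1, which makes HMG-CoA for the pathway, was at 288, 70.3 and 332 CPM in siMLX and 108, 108 and 113 CPM in siControl (1.07 ± 0.48 and 1.5 ± 0.30, edgeR adjusted p 0.191 and 0.0175). SQLE, the squalene epoxidase, was at 248, 113 and 257 CPM against 128, 139.9 and 126 CPM (0.65 ± 0.29 and 0.94 ± 0.19, adjusted p 0.181 and 0.02). Replicate 2 lay below all controls for both, and the other siMLX libraries lay above them. Of 25 listed genes, 2 rose with all libraries, STARD4 among them, and 9 rose without siMLX replicate 2. In the fit of only the compared libraries without it 17 rose. Over all genes 3.72%, 2.59% and 7.1% rose in these fits. Rises on the list numbered 0, 0 and 0 with siControl replicate 1, 2 or 3 left out and 1 and 0 with siMLX replicate 1 or 3 left out. Library medians of the list were 0.56, -0.31 and 0.66. The plot of fold changes with and without siMLX replicate 2 shows these genes with a median of 0.40 on the horizontal and 0.58 on the vertical axis.

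**Figure D3:**
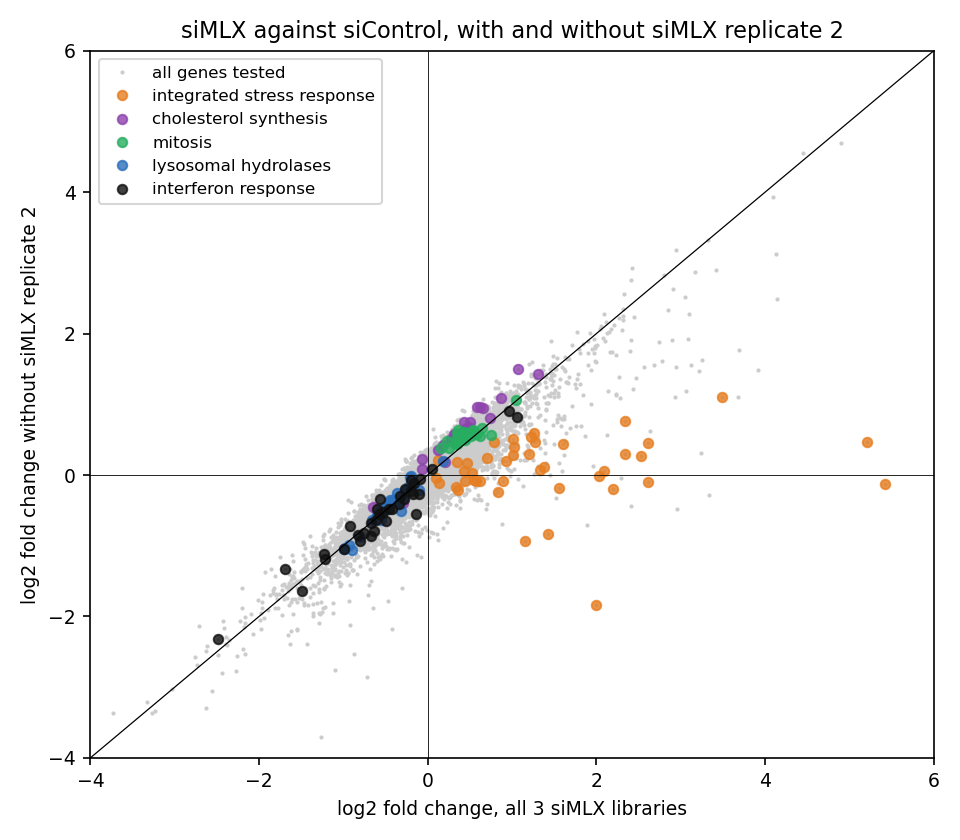
Log2 fold change of siMLX against siControl with all 3 siMLX libraries (horizontal) and without siMLX replicate 2 (vertical) for all genes tested in both fits (light grey) and 5 gene lists (colours); the diagonal marks equal values. Stress response genes lie right of 0 and near 0 vertically (medians 1.15 and 0.07), while lysosomal hydrolases, interferon response and mitosis genes lie near the diagonal.

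Stress and inflammatory genes moved mainly in siMLX replicate 2. The 43 integrated stress response genes had library medians of 0.04, 2.04 and 0.15 in siMLX replicates 1, 2 and 3. CEBPB was the single call with all libraries (0.79 ± 0.21, edgeR adjusted p = 0.0482; 0.46 ± 0.14 and 0.0795 without siMLX replicate 2), while 8 rose with the replicate block, where 6.42% of all genes rose. Without siMLX replicate 2 none rose. In the fit of only the compared libraries without it 6 rose and 2 fell, where 7.1% of all genes rose and 8.96% fell. That library was left out for its high stress genes, so the lack of rises without it follows in part from that choice. SESN2, a brake on mTORC1 on the same list, fell without siMLX replicate 2, at 5.31, 51.5 and 4.42 CPM in siMLX against 9.24, 10.5 and 8.02 CPM in siControl (-0.93 ± 0.24, adjusted p = 0.0428). With all libraries it was 1.15 ± 0.74 (edgeR adjusted p = 0.364), so its direction rests on leaving that library out. Of 18 NF-kB targets and cytokines, IL6, IL11, CXCL3 and IL1A rose and BIRC3 fell with all libraries, while IL6 rose and BIRC3 and NFKB1 fell without siMLX replicate 2. Over all genes 3.72% rose and 4.69% fell with all libraries, and 2.59% and 3.68% without siMLX replicate 2. NF-kB targets that rose numbered 0, 0 and 0 with siControl replicate 1, 2 or 3 left out and 7 and 2 with siMLX replicate 1 or 3 left out. BIRC3, an inhibitor of apoptosis, was at 4.16, 5.62 and 3.28 CPM against 9.95, 11.1 and 6.98 CPM, lower in each siMLX library (-1.09 ± 0.28 and -1.33 ± 0.30, adjusted p 0.0378 and 0.0284). The immediate early gene list of 22 had the same 4 calls in both fits, all higher: ZFP36, NR4A1, FOSB and JUN; the rises numbered 1, 1 and 3 with siControl replicate 1, 2 or 3 left out and 5 and 3 with siMLX replicate 1 or 3 left out. ZFP36, which destabilises cytokine mRNAs, was at 29.7, 42 and 24.6 CPM against 15, 13.6 and 12.8 CPM (1.22 ± 0.19 and 0.98 ± 0.14, adjusted p 0.00516 and 0.00472), and JUN, an AP-1 subunit, at 61.8, 195 and 68.4 CPM against 30.4, 28 and 41 CPM (1.71 ± 0.39 and 0.97 ± 0.19, adjusted p 0.0267 and 0.0172). Without a library the edgeR adjusted p was over 0.05 for CEBPB (0.142, 0.153 and 0.117 leaving out siControl 1, 2 or 3), BIRC3 (0.121 and 0.134 leaving out siControl 1 or 2 and 0.0797 and 0.118 leaving out siMLX 1 or 3) and JUN (0.108, 0.111 and 0.0589 leaving out siControl 1, 2 or 3).

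**Figure D4:**
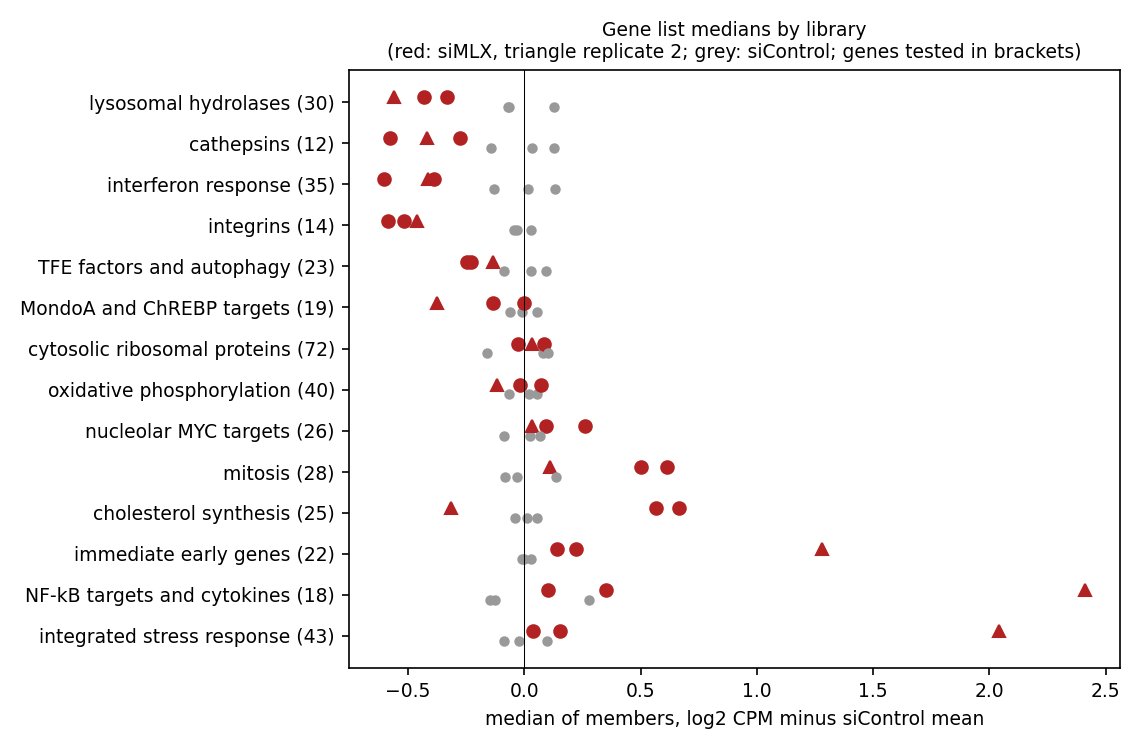
Median over the tested members of 14 gene lists, as log2 CPM minus the siControl mean, in each siMLX library (red, triangle for replicate 2) and siControl library (grey). The siMLX libraries lie together below 0 for lysosomal hydrolases and interferon response, while replicate 2 lies alone at 2.04 for the stress response and at -0.31 for cholesterol synthesis.

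Growth and energy programs were mostly without calls. No member was called among 72 cytosolic ribosomal protein genes (median 0.02), 40 genes of oxidative phosphorylation (median -0.05) or 26 nucleolar MYC targets (median 0.13), by edgeR with all libraries or without siMLX replicate 2. In those 3 lists 2, 5 and 2 members had an unadjusted p under 0.05, and DESeq2 called 1, 1 and 2. Integrin genes leaned lower: 13 of 14 had a negative fold change (median -0.54), ITGA10 and ITGB5 fell with all libraries, 5 fell without siMLX replicate 2 and 9 with the replicate block. Over all genes 4.69%, 3.68% and 8.59% fell in these 3 fits. ITGB5, a chain of vitronectin receptors, was at 229, 215 and 191 CPM in siMLX and 378, 311 and 295 CPM in siControl (-0.63 ± 0.12 and -0.65 ± 0.14, edgeR adjusted p 0.0133 and 0.0232). In the collagen and matrix list TNC, COL12A1, LOXL2 and COL1A1 rose and COL1A2 fell of 21 tested, where 3.72% of all genes rose and 4.69% fell. TNC, COL12A1 and COL1A2 were also called without siMLX replicate 2. The rises numbered 1, 1 and 2 with siControl replicate 1, 2 or 3 left out and 3 and 2 with siMLX replicate 1 or 3 left out. TNC, the matrix protein tenascin C, was at 118, 159 and 167 CPM against 60.6, 59.4 and 72.2 CPM (1.21 ± 0.14 and 1.15 ± 0.15, adjusted p 0.0017 and 0.00318), with no overlap. Of 18 genes tested in the E-box clock list BHLHE40 rose and BHLHE41 fell, a related pair of clock repressors. BHLHE40 was at 178, 274 and 193 CPM against 114, 107 and 94.2 CPM (1.04 ± 0.18 and 0.82 ± 0.14, adjusted p 0.00846 and 0.0113), and BHLHE41 at 128, 80.8 and 103 CPM against 189, 199 and 185 CPM (-0.88 ± 0.19 and -0.72 ± 0.18, adjusted p 0.0219 and 0.0401). RORA, at or near the floor in siControl, was the other clock gene called, and all 3 were called without siMLX replicate 2 too. Leaving out a library took the edgeR adjusted p past 0.05 for ITGB5 (0.0593 leaving out siControl 1 and 0.0566 leaving out siMLX 3) and BHLHE41 (0.0763, 0.0837 and 0.0582 leaving out siControl 1, 2 or 3 and 0.0694 leaving out siMLX 3).

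In prostaglandin metabolism PTGS1 and PTGIS fell, and PTGES and PTGFR rose, of 18 tested, in both fits. Over all genes 4.69% and 3.68% fell in those fits, and 3.72% and 2.59% rose. PTGES, which makes prostaglandin E2, was at 234, 261 and 274 CPM in siMLX and 172, 155 and 157 CPM in siControl (0.67 ± 0.10 and 0.66 ± 0.11, edgeR adjusted p 0.00516 and 0.0106). PTGIS, which makes prostacyclin, was at 23.9, 17.5 and 12 CPM against 78, 37.8 and 36.3 CPM (-1.51 ± 0.33 and -1.5 ± 0.37, adjusted p 0.021 and 0.0399). PTGES rose and both PTGS1 and PTGIS fell with no overlap between the groups. Of 26 RAS family GTPases, RASD1, RALA and RRAS2 rose, while RASD1, RALA and RAP2B rose and GEM fell without siMLX replicate 2. The rises numbered 1, 1 and 1 with siControl replicate 1, 2 or 3 left out and 3 and 2 with siMLX replicate 1 or 3 left out. The glucocorticoid response list had RASD1 as its single call of 14 in both fits. Of 14 genes tested in the pentose phosphate and hexosamine list GNPNAT1, an enzyme of UDP-GlcNAc synthesis, rose. It was at 171, 216 and 195 CPM against 90.3, 103 and 104 CPM (0.97 ± 0.16 and 0.89 ± 0.17, edgeR adjusted p 0.0072 and 0.0149). Other lists held few calls with all libraries: 2 up and 1 down of 21 for ductal and classical PDAC genes (HNF4A and GATA6 up, CLDN4 down), 2 up and 0 down of 12 for mesenchymal and basal genes (KRT17 and SNAI1), 2 up and 0 down of 18 for hypoxia (P4HA2 and LOX), 0 up and 2 down of 21 for NRF2 targets (AKR1C1 and AKR1C2, a near-identical pair), 0 up and 1 down of 20 for the BCL2 family (BMF), 0 up and 1 down of 20 for G1 cyclins and inhibitors (RBL2), and 0 up and 1 down of 21 for the unfolded protein response (HSP90B1). Without siMLX replicate 2, HNF4A, CLDN4, P4HA2, LOX, BMF, RBL2 and HSP90B1 kept their calls in these lists, GATA6 did not, and no mesenchymal and basal gene or NRF2 target was called. A single fall of 20 or 21 is near the 4.69% of all genes that fell with all libraries. Such single calls are therefore not read as results about the lists. Leaving out siControl 1, 2 or 3 each left no call among mesenchymal and basal, hypoxia, G1 and unfolded protein response genes, and leaving out siControl 1 or 2 left none among ductal genes and NRF2 targets. CLDN4, a ductal tight junction protein, was at 44.5, 17.7 and 22.6 CPM against 108, 79.4 and 76.2 CPM (-1.64 ± 0.35 and -1.4 ± 0.34, adjusted p 0.0199 and 0.0356). KRT17 in the basal list and PTGFR were at or near the floor in siControl, so no fold is given. Leaving out single libraries took the edgeR adjusted p past 0.05 for PTGIS (0.0721 leaving out siControl 1 and 0.0708 leaving out siMLX 3) and CLDN4 (0.0855 and 0.0616 leaving out siControl 1 or 2 and 0.0735 leaving out siMLX 3).

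Because MLX is the partner of MondoA, siMLX was also compared directly with siMondoA. Of 13001 genes 807 were higher in siMLX (6.21%) and 866 lower (6.66%), 1673 in all (12.9%), and without siMLX replicate 2 the counts were 1306 (9.91%) and 1664 (12.6%) of 13182, 2970 in all (22.5%). The total fell to 734 leaving out siMLX 1, 670 leaving out siMLX 3, 994 leaving out siMondoA 2 and 751 leaving out siMondoA 3. CTSZ was at 222, 265 and 226 CPM in siMondoA, within the range of siControl or above it, and lower in siMLX in the direct test (log2 difference -2.86 ± 0.17 and -2.8 ± 0.20, adjusted p 3e-05 and 5.4e-05 with all libraries and without siMLX replicate 2). EIF3M was at 392, 443 and 413 CPM in siMondoA and likewise lower in siMLX (-1.75 ± 0.15 and -1.82 ± 0.16, adjusted p 0.000274 and 0.000161). NTS was at 2137, 979.7 and 2372 CPM in siMondoA and higher in siMLX (2.25 ± 0.30 and 2.31 ± 0.32, adjusted p 0.00205 and 0.00127). For these 3 genes siMondoA libraries overlapped siControl libraries. For PTGS1, at 2.34, 1.83 and 2.0 CPM in siMondoA, the direct difference did not pass the test (-0.34 ± 0.29 and -0.44 ± 0.34, adjusted p 0.455 and 0.373). PSAP was lower in siMLX than in siMondoA (-1.26 ± 0.15 and -1.32 ± 0.17, adjusted p 0.00128 and 0.001), while for TPP1 no difference passed (0.03 ± 0.14 and -0.03 ± 0.15, adjusted p 0.9 and 0.907).

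Of the 12 genes farthest apart between the knockdowns, 9 had not passed the test against siControl. PCK1, the cytosolic gluconeogenic carboxykinase, was at 108, 69 and 154 CPM in siMLX, 62.2, 134 and 118 CPM in siControl and 4.22, 0.954 and 2.72 CPM in siMondoA. Its log2 difference from siMondoA was 5.38 ± 0.49 and 5.63 ± 0.43, adjusted p 0.000349 and 9.97e-05. The epithelial cadherin gene CDH1 was at 3.71, 2.77 and 1.3 CPM in siMLX, 9.15, 4.26 and 4.5 CPM in siControl and 29.9, 39.8 and 22.6 CPM in siMondoA, a log2 difference of -3.58 ± 0.40 and -3.64 ± 0.47, adjusted p 0.000913 and 0.000905. PCK1 was thus lower, and CDH1 higher, in every siMondoA library than in any siMLX library, as the rule that picked these genes requires. Against siControl the CDH1 value in siMLX was -1.2 ± 0.41 (edgeR adjusted p = 0.096), and -1.22 ± 0.26, edgeR adjusted p = 0.0275, with the replicate block. BIRC3 was at 47.4, 29.1 and 48 CPM in siMondoA, above siControl, and below siControl in siMLX as given above (-3.25 ± 0.27 and -3.48 ± 0.30, adjusted p 0.000274 and 0.000152). IGFBP5, a secreted IGF-binding protein, was at 873, 1088 and 1082 CPM in siMLX, 693, 903 and 813 CPM in siControl and 128, 172 and 219.5 CPM in siMondoA (2.55 ± 0.20 and 2.5 ± 0.21, adjusted p 0.000179 and 0.000122). DCN, raised by siMLX, was at 2.58, 1.59 and 2.16 CPM in siMondoA (2.51 ± 0.36 and 2.54 ± 0.39, adjusted p 0.00297 and 0.00193). The others by the same rule were PXYLP1, ZNF488 and MLC1, higher in siMLX, and SERPINB2, OLR1, C15orf48 and MLX itself, lower; SERPINB2 and OLR1 were at or near the floor in siMLX. By list, with all libraries and without siMLX replicate 2, the stress response genes lower in siMLX than in siMondoA numbered 2 of 43 and 39 of 43. The NF-kB targets and cytokines numbered 8 of 18 and 17 of 19, and none was higher in either list. siMLX replicate 2 was left out for its high stress genes, so the larger counts without it follow in part from that choice. Relative to the siControl mean, stress response medians were 1.19, 2.68 and 1.96 in siMondoA and 0.04, 2.04 and 0.15 in siMLX replicates 1, 2 and 3. For the NF-kB list they were 2.21, 2.6 and 2.77 in siMondoA and 0.1, 2.41 and 0.35 in siMLX. Of 12 cathepsins 4 and 5 were lower and 2 higher in both fits. Of 30 hydrolases 5 and 7 were lower and 1 higher in both fits. Of 28 mitotic genes 1 and 2 were lower and 0 and 4 higher. Of 72 ribosomal protein genes 18 and 16 were higher and none lower, with none called against siControl. Over all genes 6.21% and 9.91% were higher in siMLX than in siMondoA in these 2 fits, and 6.66% and 12.6% were lower. The mitotic counts are near these shares and are not read as a result about that list. Both knockdowns share their siControl libraries, so their separate differences from control are not correlated here.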

How the data were processed

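RNA-seq of PSN-1 cells was analysed for 3 siMLX, 3 siControl and 3 siMondoA libraries, grouped by title. Per the labels' protocols, Direct-zol kits were used for RNA, Kapa libraries were made from 500 ng, and sequencing gave read pairs of 25 bases each on an Illumina machine. Per the submitters' processing notes, the tools include TopHat2 2.1.0 and HTSeq 0.6.1, after bcl2fastq 1.8.4, and the builds named are hg38 and mm10; the sources used here do not state strandedness. The authors deposited raw counts for 26485 gene symbols, and in the same table a log2 fold change and p-value with adjusted p-value of their own, per the file headers; the notes name edgeR too, without saying what it was used for.

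Counts were fitted in R 4.3.3 with edgeR 4.0.16 (filterByExpr, TMM, quasi-likelihood test, 9 libraries in 1 fit, no replicate block) and p-values adjusted by Benjamini-Hochberg over all genes tested. Deviations of same-numbered siMLX and siControl libraries correlated at 0.27, 0.19 and 0.36. For same-numbered siMondoA libraries the values were 0.53, 0.45 and -0.11 with siMLX and 0.14, 0.088 and 0.0084 with siControl. The labels do not say what a number marks, so whether the numbers pair libraries cannot be told. The block, DESeq2 1.42.0, other scaling and filters, and leaving out each library were alternatives. CPM use TMM factors, and the floor of 3 counts covers counting error only. The 34 lists hold 808 genes, 747 of them tested.

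Named genes are the network genes, MLX, CTSZ, RASD1 and PTGS1, the 12 largest rises and falls called with and without siMLX replicate 2 with a mean of at least 4 CPM and no overlap, up to 4 genes per list, the genes that set siMLX replicate 2 apart and the 6 most different from siMondoA each way. The last had the same limits on calls, CPM and overlap, set between siMLX and siMondoA libraries. Which of the list genes appear was decided in writing. EIF3M, DMBT1, NTS, DIO2, AOX1, TCF7L1, COL1A1, IL1A, IRF7 and CTSD were named after their values were seen. Some genes that the rule covers are not reported here. Members and lists were chosen with earlier results of these data known. Positions are from GENCODE v29 and promoters from RefSeq. The second experiment, with a drug, was not used here.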

Additional observations from a re-analysis of the deposited data

How the results depend on the processing

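The count of called genes moved with the fit. Against 1094 called (484 higher, 610 lower), DESeq2 called 1686 (763 and 923), the replicate block 1815 (848 and 967) over the 9 libraries and 1923 (823 and 1100) over the 6, and the 6 libraries compared without siMLX replicate 2, a setting added after seeing the data, 2089 (924 and 1165). With each library left out in turn the count ran from 254 to 833, with 104 to 379 higher and 150 to 485 lower. For siMLX against siMondoA it was 1673, 670 to 2970 with a library left out and 2606 with a block over the 9 libraries. Whether the replicate numbers pair siMondoA with the others cannot be told. Other scaling, other filters on low counts and a fit of the 6 libraries alone moved these counts by less than 1.5 times. The E-box shares, recomputed only over genes called also without siMLX replicate 2, moved by less than their binomial interval.

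Of 74 genes named with values, 60 were called; all 60 were called with either replicate block, each adding 5 others, and 59 were called by DESeq2, which gave IL6 no adjusted p. Of the 60, 59 were called without siMLX replicate 2 and 38 without each library in turn. The 12 largest rises and falls were named only if called without siMLX replicate 2 too, so the 59 follows in part from that choice. Over all genes, 419 of the 1094 calls with all libraries were lost without siMLX replicate 2. Leaving out siControl replicates 1, 2 and 3 ended 20, 18 and 10 of the 60 calls, and leaving out siMLX replicates 1 and 3 ended 3 and 12. The MLX fall kept its call in every setting run. Directions turned in genes not called with all libraries: SESN2 (-0.93 without siMLX replicate 2, up to 1.63 without another library, -0.94 in the 6 libraries without it), MYC near 0 (-0.11 to 0.077 with a library left out, -0.0038 by DESeq2's scaling, -0.0039 by DESeq2, -0.00096 with no filter, -0.011 in the 6 libraries alone and -0.015 with their replicate block), IRF1 (-0.55 to 0.051 with a library left out) and PCK1 (-0.25 to 0.32). The causes were not tested.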
